A study of Mus musculus with 6 samples.

Results

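Some hairpins yield microRNAs by routes other than the usual Drosha and Dicer pathway. The mouse hairpins Mir320, Mir484, Mir877, Mir1224 and Mir451a were followed by small RNA sequencing of the embryonic stem cell line J1. They are 5 of the 1174 annotated hairpins searched. Sequenced tags of 18 to 26 bases that matched a hairpin exactly on its sense strand were summed per arm, and 8 arms of these hairpins had tags, of 1263 arms in all. The cells were gelatin-adapted and kept in 1000 U/ml leukemia inhibitory factor in all groups. For 24 h they received retinoic acid at 1 µM, the compounds BIO at 1 µM or CHIR99021 at 3 µM, vitamin C at 50 µg/ml, or a vehicle, 1 µL of ddH2O or of DMSO. The design sets vitamin C against ddH2O and the other compounds against DMSO. Retinoic acid induces differentiation, and the kinase GSK3 is inhibited by both BIO and CHIR99021. Vitamin C helps iron-dependent dioxygenases, which act on methylated histones and DNA.

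Most microRNA hairpins are cut out of long transcripts by the nuclease Drosha and then opened by Dicer. MiR-320 and miR-484 are known to come from short capped transcripts whose hairpin needs no Drosha, and the arm on the 3′ side (miR-320) or on the 5′ side (miR-484) is kept. Mirtrons such as miR-877 and miR-1224 are short introns: splicing and debranching set both hairpin ends in place of Drosha. Pre-miR-451 is too short for Dicer, so it is cut by the Argonaute protein Ago2 and then trimmed at its 3′ end. MiR-451a is best known from red blood cells.

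RefSeq (GRCm38.p6) held 4 of the 5 hairpins, and miR-320 is given by name only. The mature sequences are shown first because their 5′ ends and lengths are compared with the tags below. Capitals mark the seed, bases 2 to 8, which pairs with targets. Each of these seeds was held by 1 RefSeq mature microRNA, the arm itself.
miR-484: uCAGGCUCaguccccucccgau
miR-877-5p: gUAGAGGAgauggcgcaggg
miR-1224-5p: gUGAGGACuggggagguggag
miR-451a: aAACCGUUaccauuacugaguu

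The hairpins of the mirtrons and of miR-451a are shown because their ends carry the route. In Mir877 and Mir1224 capitals mark the first 2 and last 2 bases, which are the GU and AG of an intron, and in Mir451a the mature microRNA, which begins in the 5′ stem.
Mir877: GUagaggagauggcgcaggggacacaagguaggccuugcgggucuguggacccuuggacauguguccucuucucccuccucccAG
Mir1224: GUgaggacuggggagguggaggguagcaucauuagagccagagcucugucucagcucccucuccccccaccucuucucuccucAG
Mir451a: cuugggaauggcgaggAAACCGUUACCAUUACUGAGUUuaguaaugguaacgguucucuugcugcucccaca

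On GRCm38, Mir877 (chr17:35960730-35960814, minus strand) has exactly the bounds of an 85-base intron of Abcf1, an ATP-binding cassette gene. Mir1224 (chr16:20604452-20604536, plus strand) has exactly the bounds of an 85-base intron in 4 transcripts of Vwa5b2. Mir320 (chr14:70443510-70443591, plus strand) lies 63 bases from Polr3d, a subunit gene of RNA polymerase III on the opposite strand. Mir484 (chr16:14159626-14159692, plus strand) overlaps Marf1, also on the opposite strand. Mir451a (chr11:78073170-78073241, plus strand) lies 100 bases from Mir144 on the same strand, and Mir451b overlaps it on the other.

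There was 1 library per group, so no comparison has a replicate check, no p-value is given, and every interval covers counting error only. Tags numbered 18870345 to 23758363 per library. MicroRNA tags were 729176 in the retinoic acid library and 1428518 to 2155065 in the others, or 3.76% of all tags after retinoic acid and 6.01 to 11.4% elsewhere. Levels are given as CPM, counts scaled to 1000000 microRNA tags of the library. The embryonic stem cell list of 18 arms, from the miR-290 to miR-295 and miR-302 hairpins, summed to between 166557 CPM after retinoic acid and 338987 CPM after CHIR99021. The fibroblast and mesenchymal list of 10 arms summed to 13578 CPM after retinoic acid and to 5260 to 9529 CPM in the other libraries. Most of this sum was 1 arm, miR-21a-5p, at 11344 CPM after retinoic acid and 3720 to 7349 CPM elsewhere. The rest of the list went both ways after retinoic acid. Against DMSO, miR-145a-5p was higher (173 against 54.8 CPM) and miR-143-5p lower (46.6 against 74.2 CPM). In such bulk RNA, fewer cells of a type and less RNA per cell cannot be told apart.

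MiR-320-3p was among the most abundant microRNAs of these cells, ranking 7 of 1263 arms by mean level. It stood at 30884 CPM after retinoic acid, 29214 after BIO, 35612 after CHIR99021 and 22247 after vitamin C, against 21627 CPM in ddH2O and 33706 in DMSO. The highest library was 1.65 times the lowest, the smallest such range among the 5 main arms. On this scale of microRNA tags, the vitamin C and ddH2O libraries were low and the other 4 libraries were high. The place of the retinoic acid library depended on the scaling, as given below. With counts from 22520 to 72639, every pair of neighbours in this order differed by more than counting error, the closest being vitamin C over ddH2O at 1.03 (95% interval 1.01 to 1.04).

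MiR-484, the other microRNA from a capped hairpin, was far scarcer, at rank 254. It had 101 CPM after retinoic acid, 75.7 after BIO, 102 after CHIR99021 and 154 after vitamin C, against 78.9 CPM in ddH2O and 63.6 in DMSO. The vitamin C library stood highest, 1.51 times the next, CHIR99021 (1.23 to 1.85). No other pair of neighbours in the order differed beyond counting error.

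The mirtron miR-877-5p had the widest range of the 5 main arms, 4.29-fold between libraries. That of miR-451a was close, 4.22-fold (1.45 to 13.1) on 10 tags against 7, so their order is not resolved. MiR-877-5p had 228 CPM after retinoic acid, 977 after BIO, 618 after CHIR99021 and 394 after vitamin C, against 306 CPM in ddH2O and 746 in DMSO. On the scale of microRNA tags, BIO, DMSO and CHIR99021 were high, vitamin C, ddH2O and retinoic acid were low, and all neighbours in the order differed beyond counting error. The place of CHIR99021 depended on the scaling. With all tags as the total its log2 ratio over DMSO was -1.20 in place of -0.27. The other mirtron, miR-1224-5p, was at 60.3 CPM after retinoic acid, 40.5 after BIO, 25.9 after CHIR99021 and 28 after vitamin C, against 35.5 CPM in ddH2O and 32.5 in DMSO. These values rest on 37 to 85 tags. On the scale of microRNA tags, retinoic acid stood 1.49 times above BIO (1.01 to 2.17), and the other neighbours did not differ beyond counting error. The place of retinoic acid depended on the scaling here too. With TMM scaling the log2 ratio over DMSO was 0.40 after retinoic acid and 0.43 after BIO. It was 0.54 and 0.45 with median-of-ratios scaling, and -0.70 and 0.04 with all tags as the total.

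MiR-451a was near the limit of detection, with 57 tags in all. It had 10 tags after retinoic acid (13.7 CPM), 12 after BIO (5.72 CPM), 9 after CHIR99021 (6.3 CPM) and 9 after vitamin C (4.76 CPM), against 10 in ddH2O (5.72 CPM) and 7 in DMSO (3.25 CPM). No neighbours in the order differed beyond counting error. A count of 3 tags, the floor used here, is worth 4.11 CPM in the retinoic acid library and 1.39 to 2.1 CPM in the others.

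**Figure D1:**
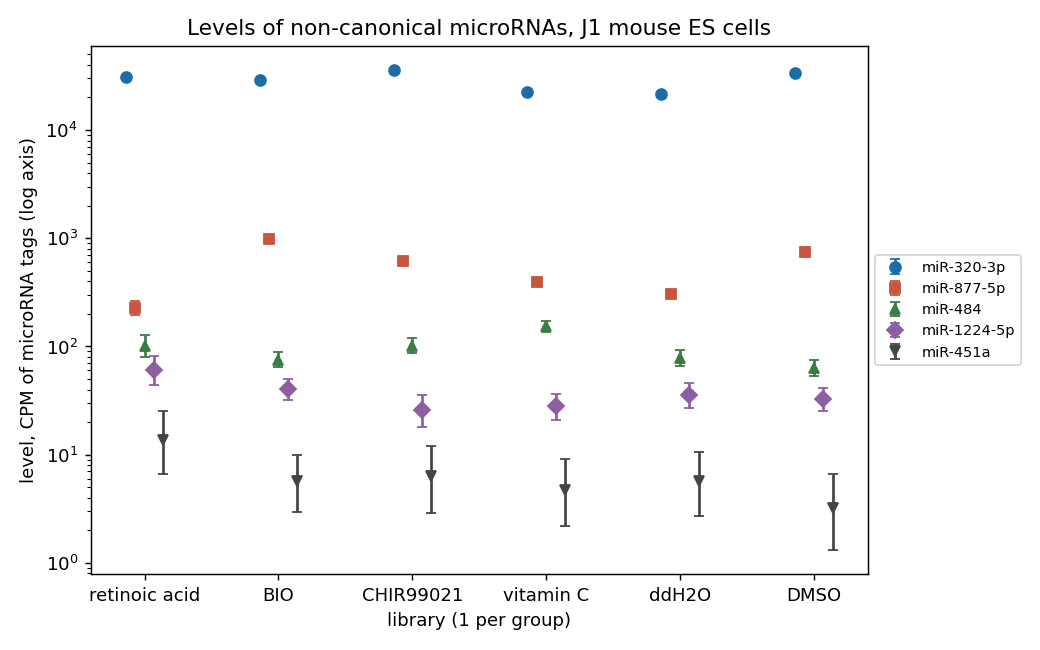
Level of each main arm in the 6 libraries, in CPM of microRNA tags on a log axis, 1 point per library with its 95% counting interval. MiR-320-3p stays between 21627 and 35612 CPM, miR-877-5p spans 228 to 977 CPM, and miR-451a lies between 3.25 and 13.7 CPM.

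Ratios were called when they were at least 2-fold, 1 lay outside their counting interval, and the higher of both levels was at least 10 CPM. After retinoic acid, miR-877-5p was lower at 228 CPM against 746 CPM in DMSO, 3.28-fold (2.79 to 3.87). MiR-451a was called higher, 4.22-fold (1.45 to 13.1), on 10 tags against 7. MiR-484 had a ratio of 1.6 (1.19 to 2.13), miR-1224-5p one of 1.86 (1.24 to 2.75) and miR-320-3p one of 0.916 (0.903 to 0.93), none of them called. So 1 of 5 arms compared was higher and 1 lower, where the same rule called 33.1% of all 534 arms higher and 7.68% lower, 40.8% in all. MiR-451a entered this comparison through the retinoic acid library alone, the one library where it passed 10 CPM, so its higher call adds nothing to the count. The median log2 ratio over all arms was 0.46.

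The retinoic acid values depended on the control and on the scaling. Against ddH2O, the vehicle of the vitamin C group, miR-877-5p was 1.34-fold lower (1.13 to 1.61) and miR-451a 2.4-fold higher (0.896 to 6.42), so neither was called, and miR-320-3p turned to 1.43-fold higher (1.4 to 1.45). With all tags as the total, which moved the median arm by -1.60, the log2 ratio over DMSO turned negative for miR-484 (-0.92 in place of 0.68) and miR-1224-5p (-0.70 in place of 0.90), and miR-320-3p was called lower (-1.73 in place of -0.13). MiR-451a lost its call there, at 0.45 in place of 2.05, so both arms then called, miR-877-5p and miR-320-3p, were lower. With TMM scaling, miR-320-3p was at -0.63 over DMSO after retinoic acid, where it was at -0.75 in ddH2O over DMSO. With median-of-ratios scaling these values were -0.49 and -0.73. MiR-484 over DMSO after retinoic acid fell to 0.18 with TMM and 0.32 with median-of-ratios scaling, in place of 0.68. MiR-1224-5p fell to 0.40 and 0.54, in place of 0.90. Over all arms 177 were higher and 41 lower with microRNA tags as the total, 100 and 91 with TMM scaling, 113 and 72 with median-of-ratios scaling, and 51 and 294 with all tags.

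The blood cell list was examined beside miR-451a, since red cells are rich in it. Its 9 arms summed to 211 CPM after retinoic acid, against 306 CPM in DMSO, and to 289 to 344 CPM in the other 4 libraries. MiR-144-5p, from the hairpin next to Mir451a, had 6 tags after retinoic acid (8.23 CPM) against 8 in DMSO (3.71 CPM). MiR-144-3p had 4 tags in each, 5.49 CPM after retinoic acid against 1.86 CPM in DMSO. The arm shared by miR-3107-5p and miR-486-5p stood at 23.3 CPM after retinoic acid against 13 CPM in DMSO, and miR-486-3p at 6.86 against 1.86 CPM. The other 5 arms, from Mir142, Mir150 and Mir155, were lower after retinoic acid than in DMSO, and miR-223 had 0 tags in all libraries. Whether blood cell RNA took part in the miR-451a ratio was not tested.

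After BIO, none of 4 arms was called, and 1.91% of 472 arms were called higher and 5.3% lower, 7.2% in all. MiR-877-5p stood at 977 CPM against 746 CPM in DMSO, a ratio of 1.31 (1.23 to 1.4), and miR-320-3p at a ratio of 0.867 (0.857 to 0.876). MiR-484 at 1.19 (0.942 to 1.51) and miR-1224-5p at 1.25 (0.898 to 1.74) were within counting error of DMSO. Against ddH2O, miR-877-5p was 3.19-fold higher (2.9 to 3.52) and would be called, and miR-320-3p turned to 1.35-fold higher (1.33 to 1.37). Over all arms 9 were higher and 25 lower, 13 and 19 with TMM scaling, 17 and 17 with median-of-ratios scaling, and 5 and 50 with all tags.

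After CHIR99021, again none of 4 arms was called, where 6.25% of 480 arms were called higher and 12.3% lower, 18.5% in all. MiR-484 stood at 102 CPM against 63.6 CPM in DMSO, a ratio of 1.61 (1.26 to 2.04), which turned negative on the log2 scale with all tags as the total (-0.24 in place of 0.68). MiR-877-5p was 1.21-fold lower (1.11 to 1.31), and 2.02-fold higher (1.81 to 2.25) against ddH2O, which would be called. MiR-320-3p had a ratio of 1.06 (1.04 to 1.07), which also turned negative with all tags (-0.85 in place of 0.08), and one of 1.65 against ddH2O, and miR-1224-5p one of 0.797 (0.52 to 1.2). Over all arms 30 were higher and 59 lower, and with all tags as the total 7 and 252.

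The GSK3 inhibitors were set beside each other at their own doses, 3 µM for CHIR99021 and 1 µM for BIO, so compound and dose cannot be told apart. None of 4 arms was called in CHIR99021 over BIO, where 7.31% of 479 arms were called higher and 6.47% lower, 13.8% in all. Both mirtrons among the 5 hairpins were lower, miR-877-5p at 618 CPM after CHIR99021 against 977 CPM after BIO, 1.58-fold (1.46 to 1.71), and miR-1224-5p at 25.9 against 40.5 CPM, 1.56-fold (1.05 to 2.37). Arms of other intron hairpins went both ways, as given below. The capped-hairpin microRNAs were higher when scaled to microRNA tags, miR-320-3p 1.22-fold (1.2 to 1.23) and miR-484 1.35-fold (1.07 to 1.7). With all tags as the total the log2 ratios of both capped-hairpin microRNAs turned negative, miR-320-3p at -0.36 in place of 0.29 and miR-484 at -0.22 in place of 0.43. Over all arms 35 were higher and 31 lower, and with all tags as the total 8 and 137.

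After vitamin C, miR-484 stood at 154 CPM against 78.9 CPM in ddH2O, a ratio of 1.95 (1.59 to 2.41), just under the 2-fold rule. MiR-877-5p had a ratio of 1.29 (1.15 to 1.44), miR-320-3p one of 1.03 (1.01 to 1.04) and miR-1224-5p one of 0.791 (0.538 to 1.16). None of 4 arms was called, where 5.98% of 485 arms were called higher and 1.44% lower, 7.42% in all. Against DMSO, miR-484 was 2.42-fold higher (1.97 to 2.99), which passed the rule, while miR-877-5p was 1.89-fold lower and miR-320-3p 1.52-fold lower, neither called.

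The vehicles themselves differed. MiR-877-5p stood at 306 CPM in ddH2O against 746 CPM in DMSO, 2.44-fold lower (2.21 to 2.69), and miR-320-3p at 21627 against 33706 CPM, 1.56-fold lower (1.54 to 1.58). MiR-484 at 1.24 (0.973 to 1.58; with all tags as the total its log2 ratio was -0.10 in place of 0.31) and miR-1224-5p at 1.09 (0.763 to 1.56) were within counting error. So 1 of 4 arms was called, lower, where 4.97% of 483 arms were called higher and 2.28% lower, 7.25% in all. Among ratios of a treatment over its own vehicle, only that of retinoic acid exceeded the vehicle difference of miR-877-5p. None of miR-320-3p reached its own vehicle difference when scaled to microRNA tags. With all tags as the total, the log2 ratio of miR-320-3p over DMSO was -1.73 after retinoic acid, beyond -1.05 in ddH2O. Over all arms 24 were higher and 11 lower, 20 and 20 with TMM or median-of-ratios scaling, and 7 and 41 with all tags.

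**Figure D2:**
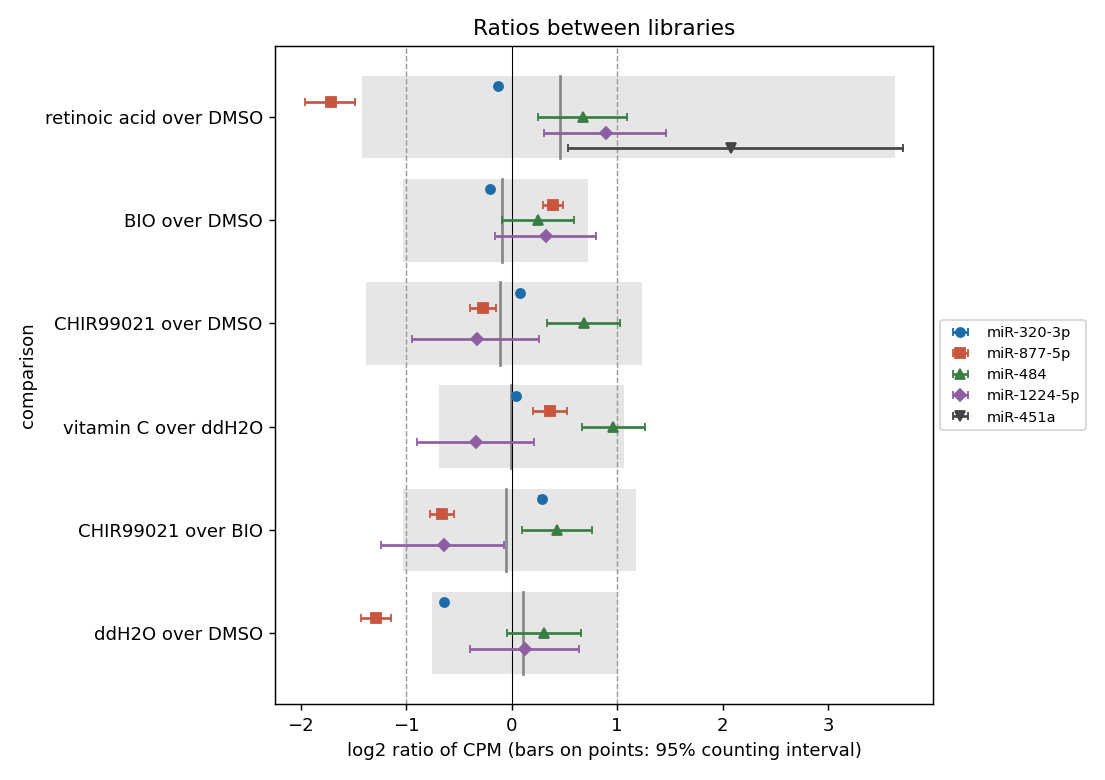
Log2 ratio of each main arm between libraries, with its 95% counting interval. Grey bands run from the 5th to the 95th percentile of all arms compared, grey lines mark their median, and dashed lines mark 2-fold. MiR-877-5p lies outside the band after retinoic acid and between the vehicles.

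Each hairpin gave tags almost wholly from 1 arm. Mir320 gave 287288 tags from its 3′ side and 2 from its 5′ side, and Mir484 gave 945 from the 5′ side and 10 from the 3′ side, 1.05% (0.503 to 1.92). Of those 10 miR-484 tags, 6 were in the DMSO library. Mir877 gave 5994 tags from the 5′ side and 7 from the 3′ side, 0.117% (0.0469 to 0.24). Mir1224 gave 351 tags and Mir451a 57, all from the 5′ side. All these are exactly matching tags, so the 3′ shares of the mirtrons can be too low. With tailed tags counted, miR-877-3p had 30 tags and miR-877-5p had 8755. Tailed tags of miR-1224-3p could not be counted, since no exact tag defined that arm. At the floor of 3 counts, 0 among 351 tags allows a 3′ share of up to 0.855% and 0 among 57 one of up to 5.26%, while the exact 95% intervals reach 1.05% and 6.27%.

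The mirtron tags began where the intron begins. Of the Mir877 tags on the 5′ side, 5894 of 5994 (98.3%, 98 to 98.6) began at hairpin base 1, the G of the intron's GU, and of the Mir1224 tags 350 of 351 (99.7%). Tags that began before base 1 could not match the hairpin and were not counted. All 7 exactly matching miR-877-3p tags ended at base 85, the G of the AG, 1 base beyond the RefSeq mature end. Tags that ran past base 85 could not match exactly either. MiR-451a began at hairpin base 17 in 57 of 57 tags, and miR-484 at 1 start in 99% of tags. MiR-320-3p was less uniform: 89.5% of its tags shared the main start, 7.45% began 1 base later and 2.3% began 2 bases later. The median over 483 arms at 10 CPM or more was 96.3%, and 33.7% of these arms lay below miR-320-3p.

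At their 3′ ends the mirtrons ran past the annotated microRNA. The most abundant tag of each arm is shown as sequenced, with T for U, and capitals mark the bases beyond the RefSeq mature end.
miR-877-5p: gtagaggagatggcgcagggGACA
miR-1224-5p: gtgaggactggggaggtggagGGT
miR-451a: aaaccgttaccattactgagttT
The 24-base form made up 76.2% of 5998 miR-877-5p tags, and 74.1 to 78.3% in each library, while the 20-base RefSeq form made up 1.83%. Its mean length of 23.8 bases was above that of 97.7% of the 483 arms, whose median was 21.8 bases. MiR-1224-5p was mixed, with 24 bases in 34.5% of tags (29.5 to 39.7) and the 21-base RefSeq form in 16.2%. Its 24-base share was 45.5% after retinoic acid, 45.9% after BIO, 27% after CHIR99021 and 18.9% after vitamin C, against 33.9% in ddH2O and 30% in DMSO. These shares come from 37 to 85 tags each, and the intervals of all treated libraries overlap those of their vehicles.

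The capped-hairpin microRNAs had more usual lengths. MiR-320-3p had 22 bases in 64% of tags and 23 bases in 25.1%. The share of 23 bases was 29.6% after retinoic acid (29 to 30.2) against 23.9% in DMSO (23.6 to 24.2). The ddH2O library lay between them, at 26.5% (26 to 26.9). MiR-484 had 22 bases in 73.4% of tags and 21 bases in 19%. For miR-451a all tags up to 44 bases were examined, since its precursor is trimmed from the 3′ end. Of 63 such tags 5 had 22 bases, 38 had 23, 10 had 24, 2 had 25, 2 had 26, 2 had 28 and 4 had 29. Of the 6 tags of 28 or 29 bases, 5 were in the ddH2O library and 1 was in the BIO library.

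**Figure D3:**
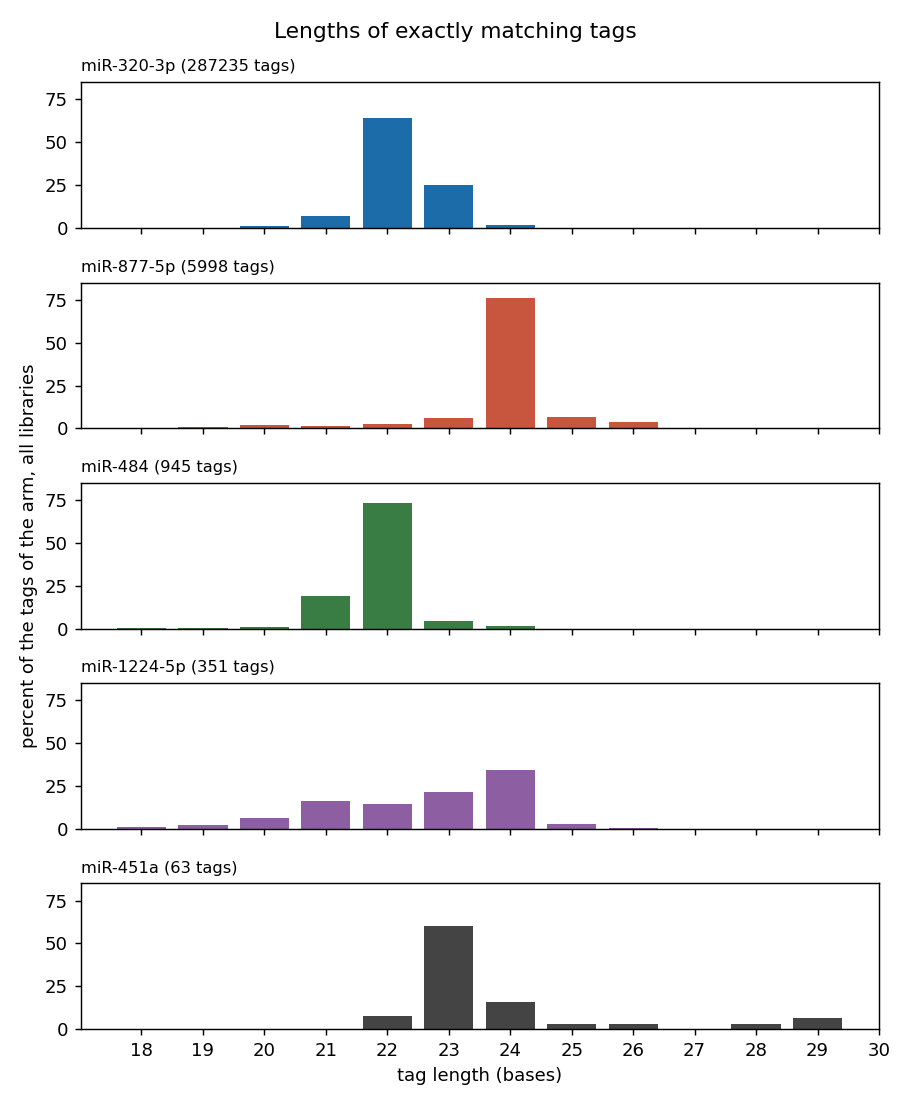
Length of exactly matching tags of each main arm, as percent of its tags over the 6 libraries. MiR-877-5p peaks at 24 bases with 76.2%, miR-320-3p and miR-484 at 22 bases, and miR-451a at 23 bases with a few tags of 28 and 29 bases.

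Untemplated 3′ ends were counted separately, as tags with 1 to 3 last bases that do not match the hairpin. Uridylyltransferases add U to small RNAs and their precursors, and in flies the enzyme Tailor acts on mirtron hairpins. U tails made up 19.2% of miR-320-3p tags (19.1 to 19.3), 18.7% of miR-1224-5p tags (15.5 to 22.2), 15% of miR-877-5p tags (14.3 to 15.8) and 9.99% of miR-484 tags (8.34 to 11.8). The median over the 483 arms was 2.65%, and 91.1%, 90.7%, 87.4% and 81.4% of arms lay below these values. MiR-320-3p had almost no A tails, 0.414% (0.393 to 0.435), against a median of 2.96%, while miR-1224-5p had 10.2% and miR-877-5p 7.36%. On the minor arm miR-877-3p, 23 of 30 tags were tailed (57.7 to 90.1%), 13 of them with U. There the hairpin's last base is the intron's last, so a base of the next exon would count as untemplated. MiR-451a had 1 tailed tag of 58, with A.

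U tails of miR-320-3p were at 23.3% after retinoic acid (22.8 to 23.8), 20.6% after BIO, 17.1% after CHIR99021 and 18.6% after vitamin C, against 20.1% in ddH2O and 18% in DMSO. Those of miR-877-5p were at 19.9% after retinoic acid, 15.1% after BIO, 11.9% after CHIR99021 and 17.6% after vitamin C, against 20.2% in ddH2O and 13.1% in DMSO. The retinoic acid library was above DMSO and the CHIR99021 library below it in both arms, although the intervals of miR-877-5p after CHIR99021 (10.2 to 13.7) and in DMSO (11.7 to 14.6) overlap. The same held over all other arms at 10 CPM or more, whose U tails were at 4.7% after retinoic acid and 3.29% after CHIR99021, against 3.61% in DMSO. The vehicles differed here too, with 4.47% in ddH2O, and vitamin C was at 4.06%. The part of the library as a whole in the tails of these arms was not tested.

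**Figure D4:**
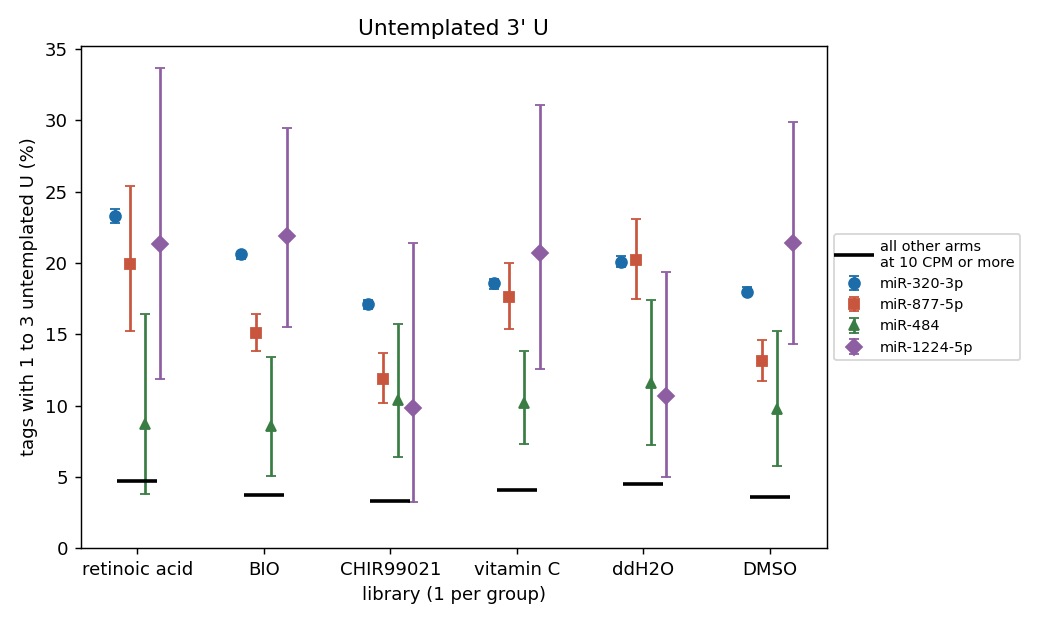
Percent of tags with 1 to 3 untemplated U in each library, with 95% counting intervals. Black bars give all other arms at 10 CPM or more, between 3.29 and 4.7%. MiR-320-3p and miR-877-5p lie between 11.9 and 23.3%.

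The other hairpins reported as mirtrons or as derived from snoRNA or tRNA, Mir702, Mir1981, Mir3102, Mir1982, Mir5132, Mir668, Mir1839 and Mir1983, had 15 arms with tags, of which 7 were abundant enough to compare. Tags matching an annotated snoRNA were left out, so a hairpin derived from snoRNA can lose its tags, and Mir1839 had 1 tag. Nuclear tRNA was not searched, so tRNA fragments that match a hairpin were kept. Of the miR-1983-5p tags 40% shared the main start, against a median of 96.3%. The part of tRNA fragments in them was not tested. After retinoic acid 1 of the 7 arms was called, miR-1983-3p at 1300 CPM against 514 CPM in DMSO, 2.53-fold higher (2.32 to 2.76). Values of this list are given with microRNA tags as the total only, and this call may depend on that scaling. Other scalings moved the median log2 ratio of all arms after retinoic acid, by -0.50 (TMM), -0.36 (median-of-ratios) and -1.60 (all tags). In ddH2O over DMSO 1 of 7 was called, miR-702-5p at 13.2 against 32 CPM, a ratio of 0.411 (0.245 to 0.667). None of 7 was called after BIO, CHIR99021 or vitamin C, or in CHIR99021 over BIO. The shares of all arms called in either direction were 40.8% after retinoic acid, 7.25% in ddH2O over DMSO, 7.2% after BIO, 18.5% after CHIR99021, 7.42% after vitamin C and 13.8% in CHIR99021 over BIO. The median log2 ratio of the 7 was 0.14 after retinoic acid, 0.08 after BIO, -0.15 after CHIR99021, 0.08 after vitamin C, -0.01 in CHIR99021 over BIO and -0.19 in ddH2O over DMSO. Over all arms it was 0.46, -0.09, -0.11, -0.01, -0.05 and 0.11 in the same order.

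Mir1981, Mir3102 and Mir1982 also have exactly the bounds of an intron, of Marc2, Arhgef17 and Oaz1. MiR-1981-5p was more abundant than miR-877-5p in every library, at 1580 CPM after retinoic acid, 2236 after BIO, 2769 after CHIR99021 and 1865 after vitamin C, against 1842 CPM in ddH2O and 1976 in DMSO. Its ratio of retinoic acid over DMSO was 0.8 (0.749 to 0.854), where that of miR-877-5p was 3.28-fold lower (2.79 to 3.87). In CHIR99021 over BIO, miR-1981-5p was higher, at a ratio of 1.24 (1.19 to 1.29). There miR-3102-3p at 0.566 (0.429 to 0.74) and miR-3102-5p at 0.678 (0.491 to 0.928) were lower, none of them called. U tails were at 37.9% on miR-3102-3p and 3.52% on miR-3102-5p, the arms of 1 hairpin, and at 4.71% on miR-1981-5p. MiR-702-5p, whose hairpin does not have exactly the bounds of its Plod3 intron, had 28.5%.

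Likeness of levels was measured by Pearson correlation of log2 CPM over the 6 libraries, among 250 arms at 100 CPM or more on average, as a description with no p. The libraries share depth and scaling. The arms most like miR-877-5p were miR-25-5p (0.97), miR-505-5p (0.93) and miR-708-3p (0.92). Those most like miR-320-3p were miR-1983-5p (0.79), miR-92-2-5p (0.76) and miR-92-1-5p (0.75). MiR-25-5p stood at 3675 CPM after retinoic acid, 7681 after BIO, 6944 after CHIR99021 and 4803 after vitamin C, against 4779 CPM in ddH2O and 7706 in DMSO.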

How the data were processed

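Deposited files list each tag once with its raw count and length, 18 to 44 bases; the authors' counts were used as deposited. Libraries were made from total RNA with a TruSeq RNA kit, per the labels' protocols. Per the submitters' processing notes the build was mm9; trimming and filters are not given in the sources used here. Tag lengths were used as deposited.

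Tags of 18 to 26 bases were matched to 1174 GENCODE M21 hairpins (GRCm38). An arm holds tags starting within 2 bases of its most abundant tag. Tags matching several arms were split evenly, and tags matching rRNA, mitochondrial tRNA, snoRNA, scaRNA or snRNA were left out; nuclear tRNA was not searched. Counts were scaled to 1000000 microRNA tags (CPM). Ratios and shares have 95% exact binomial (Clopper-Pearson) intervals for counting error only, and log2 ratios used a pseudocount of 0.5. With 1 library in each of 6 groups, no test between groups was made.

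Members, lists and tests were chosen with earlier results of these data known. All arms of the 5 hairpins are reported, as are arms of the other lists where a result turned on them, and the 3 arms most like each member at 100 CPM or more. Counting was tested on simulated data. Python 3.11.15, NumPy 2.4.6, SciPy 1.17.1, matplotlib 3.10.9, R 4.3.3, edgeR 4.0.16 (TMM factors) and DESeq2 1.42.0 (size factors) were used. Alternatives were other scalings, minimum levels, tag windows and lengths, tails counted, shared tags left out, and the other vehicle.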

Additional observations from a re-analysis of the deposited data

Results flagged for a closer look

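Untemplated C stood out in the CHIR99021 library, in tags outside the compared levels. Tags of miR-320-3p with 1 untemplated C made up 2.16% of exact and tailed tags after CHIR99021 (2.05 to 2.27), against 0.309% in DMSO (0.275 to 0.347) and 0.263 to 0.371% in the other 4 libraries. Among tags of 22 bases the share was 3.81% after CHIR99021, against 0.379% in DMSO. Over all other arms the 22-base share was 0.791% after CHIR99021 against 0.109% in DMSO, so it was not limited to miR-320-3p.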

How the results depend on the processing

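No paired analysis was possible because each group has 1 library. Over the alternatives, 231 single-arm values kept their call or stayed within counting error, 44 moved further, 13 became called, 4 lost a call and 0 turned a called value round. The count of called arms moved as follows. With all tags as the total, 2 arms were called in CHIR99021 over DMSO (miR-877-5p at -1.20 and miR-1224-5p at -1.24), 2 in CHIR99021 over BIO (the same arms at -1.31 and -1.28), 1 in vitamin C over ddH2O (miR-484 at 1.06) and 2 in ddH2O over DMSO (miR-877-5p, and miR-320-3p at -1.05). In vitamin C over ddH2O, 33 were then higher and 6 lower of 485 over all arms, and the other comparisons are given above. With only the most abundant tag of each arm, miR-1224-5p became called in 3 comparisons: higher after retinoic acid (1.45 in place of 0.90, 3 arms called in place of 2), and lower, as the 1 arm called, after vitamin C (-1.13) and in CHIR99021 over BIO (-1.46). Over all arms this setting called 162 higher and 41 lower of 513 after retinoic acid. It called 27 and 8 of 465 after vitamin C, and 31 and 32 of 446 in CHIR99021 over BIO. With a minimum of 50 CPM, 1 arm was called after retinoic acid, since miR-451a no longer qualified. Over all arms 111 were then higher and 26 lower of 358. With the other vehicle library as control, 0 were called after retinoic acid, and 1 each after BIO, CHIR99021 and vitamin C; over all arms, 142 were then higher and 35 lower of 536 after retinoic acid, 21 and 47 of 485 after BIO, 32 and 69 of 494 after CHIR99021, and 42 and 9 of 483 after vitamin C. The cause was not tested beyond what each setting changes. TMM scaling and median-of-ratios scaling kept every count of called arms, while they moved the median of all arms after retinoic acid by -0.50 and -0.36. All tags as the total moved it by -0.28 after BIO, -0.93 after CHIR99021, 0.10 after vitamin C, -0.65 in CHIR99021 over BIO and -0.41 in ddH2O over DMSO. Depth limits miR-451a and miR-1224-5p most.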
